A study of Mus musculus with 20 samples.

Results

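The 31 genes described here are the interleukin ligand genes of the mouse, taken as every row of the deposited table whose symbol is Il followed by a number and at most 1 letter from a to f, leaving out Il7 and Il25. They are 31 of 51810 genes. The rule used names and no measured value. It covers ligands of the IL-1, IL-12, IL-10 and IL-17 families, the type 2 cytokines, cytokines that signal through the common gamma chain, and several that stand alone. RNA was measured in 12 libraries of medullary thymic epithelial cells (mTEC), the stromal cells that show self-antigens to developing T cells. The series title concerns p53, chromatin accessibility noise and tolerance. Each genotype, WT or cHyper, was sampled as mTEClo and as mTEChi, with 3 libraries for each of the 4 groups. WT stands for the label Trp53-WT and cHyper for Trp53-cHyper; all mice were 4 to 5 weeks old, and 75000 cells, enriched for EpCAM on beads, were sorted for a sample. What cHyper stands for, the promoter or cell type that drives it, and the gates that define mTEClo and mTEChi were not found in the labels.

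Interleukins are secreted proteins by which leukocytes and epithelia signal to each other through receptors made of shared subunits. Most of them are known as products of activated T cells, innate lymphoid cells or myeloid cells. Mature mTEC transcribe many genes that otherwise mark other tissues, part of them under the transcriptional regulator Aire, and so display their products to T cells before export from the thymus. Several interleukins are heterodimers: Il12a (p35) pairs with Il12b (p40) to form IL-12, Il23a (p19) pairs with Il12b to form IL-23, and Il27 (p28) pairs with Ebi3 to form IL-27.

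Library totals ran from 22023800 to 47926607 fragments, with at most 25306137 in replicate 3 of each group; replicates 1 and 2 each join 2 samples of the labels and replicate 3 holds 1. None of the 14 mTEC markers, Epcam among them, was at 0 throughout a group, and they summed to between 11904 and 14072 CPM (fragments relative to library size, on the scale of edgeR's TMM normalization). Whether replicates were different mice is not in the labels; every p here therefore reflects library-to-library spread, which may be technical. A gene was called when the Benjamini-Hochberg (BH) adjusted p of edgeR's quasi-likelihood test, over the 28932 genes that passed a filter on low counts, was under 0.05. Of the 31 interleukin genes, 30 passed that filter and Il20 did not. In mTEClo alone 17 would have passed. The other 13 passed through their mTEChi counts, so a difference between the cell types was built into their passing. They were Il17a, Il17f, Il24, Il19, Il21, Il6, Il31, Il27, Il22, Il17c, Il12b, Il3 and Il9.

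Summed over the 31 genes, the deposited TPM (a level per length, used wherever genes are compared with each other) ran from 65.9 to 80.3 in the mTEClo libraries and from 591 to 736 in the mTEChi libraries. In mTEClo the sum was led by Il23a, Il15 and Il33, which held 46.9% to 53.7% of it. In mTEChi it was led by Il13, Il23a and Il12a, with 57.4% to 63.2%. Every one of the 31 genes had a fragment in each mTEChi library, against 19 to 20 genes in WT mTEClo libraries and 21 to 27 in cHyper mTEClo libraries.

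**Figure D1:**
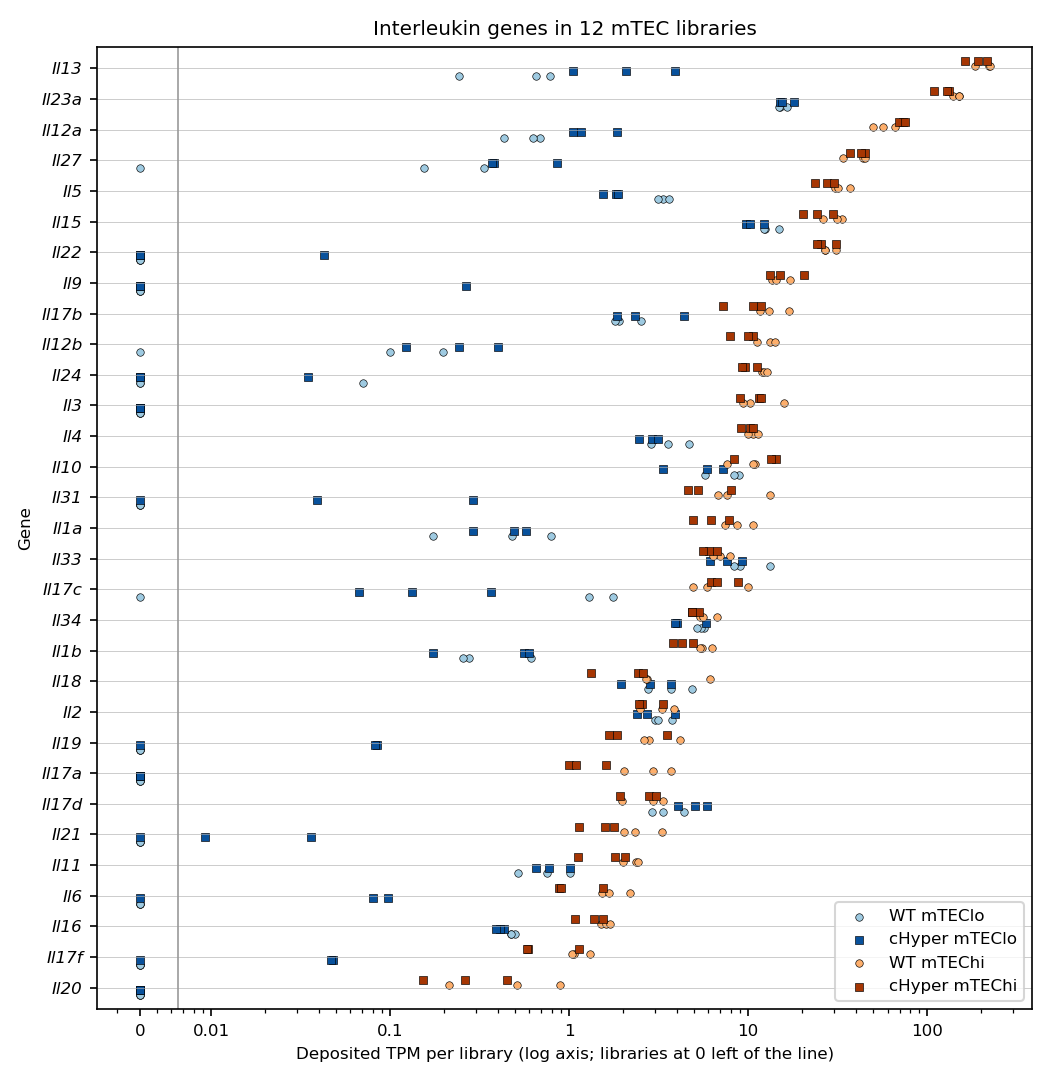
Deposited TPM of the 31 interleukin genes (log axis, libraries at 0 left of the vertical line), each point 1 library, circles WT and squares cHyper. Il13, Il23a and Il12a head the mTEChi libraries, while 10 genes had no fragment in any WT mTEClo library.

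**Figure D2:**
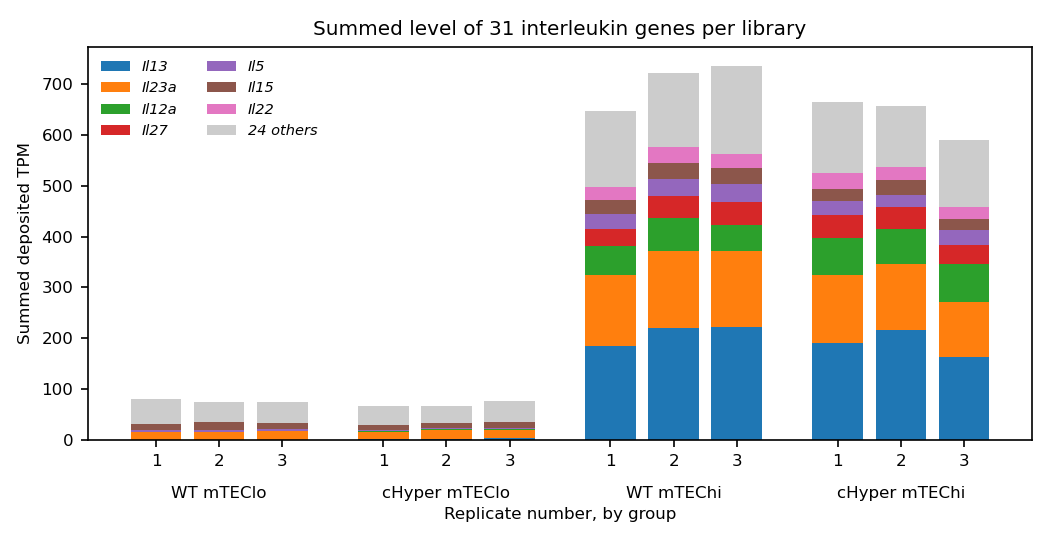
Deposited TPM summed over the 31 interleukin genes in each library, bars split by the 7 genes with the highest mean in WT mTEChi and the 24 others. The mTEClo bars lie between 65.9 and 80.3 and the mTEChi bars between 591 and 736.

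Between the cell types, most interleukin genes were higher in mTEChi. In WT, 24 of 30 tested genes were called higher and 1, Il33, lower, where 69.5% of all genes tested were called, 40.2% higher and 29.4% lower. In cHyper, 25 were called higher and 2, Il33 and Il17d, lower, against 64.5% called, 38.7% higher and 25.8% lower. The libraries of the cell types did not overlap for 24 genes higher and 2 lower in WT, beside 41.8% and 31.4% of all genes, and for 25 and 2 in cHyper, beside 40.3% and 28.4%. Because 13 genes had to differ, the count that can be read against the background is that of the 17 genes measurable in mTEClo alone: 11 higher and 1 lower in WT, against 27.8% and 37.3% of the 22756 genes of that kind, and 12 higher and 2 lower in cHyper, against 26.5% and 32.7%. Their median log2 difference was 1.34 in WT and 1.57 in cHyper, beside 0.12 and 0.13 over all genes tested. Those medians also cover genes that do not reach the filter in mTEClo alone, so they are not for a like set. The overall centre depends on the scaling. With DESeq2's size factors the median of all genes was 0.22 and 0.18, and with library totals 0.34 and 0.30. With totals 13121 genes were called higher and 6268 lower in WT, in place of 11626 and 8493. In cHyper it was 12450 and 5558, in place of 11193 and 7455. The same 24 and 25 counts of higher interleukin genes came out under both scalings. In these bulk samples, fewer cells of a type and less RNA per cell cannot be told apart.

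Between the genotypes, 3 interleukin genes were called in mTEClo: Il12a and Il13 rose in cHyper and Il5 fell. That is 3 of 30, beside 9.16% of all genes (4.53% higher, 4.64% lower), so the share is near the background. At an unadjusted p under 0.05 there were 11 of 30, 7 of them among the 13 that passed the filter through mTEChi, and 6691 of all 28932 genes. The libraries of the genotypes did not overlap for Il12a, Il13 and Il27, higher in cHyper, and for Il5 and Il16, lower, which is 3 and 2 genes beside 12.2% and 13% of the genes with a fragment in mTEClo. In mTEChi 0 of 30 were called by edgeR, beside 1.98% of all genes (1.56% higher, 0.418% lower); 3 had an unadjusted p under 0.05, as did 4335 of all 28932 genes, and DESeq2 and limma-voom also called 0. With DESeq2's size factors the 451 higher and 121 lower genes of mTEChi became 352 and 181, and a replicate block in edgeR raised the count of all called genes from 572 to 1251 with 0 interleukin genes among them. The mTEChi genotypes did not overlap for Il12a, higher in cHyper, and for Il17a, Il21, Il12b and Il1b, lower, beside 12.4% and 13.3% of the genes with a fragment in mTEChi. In mTEChi the log2 difference was below 0 for 22 interleukin genes and above 0 for 8, with a median of -0.18, beside -0.0037 over all genes tested. In the same mTEChi libraries, summed markers were lower in every cHyper library for 3 other lists: mast cell (26.8 to 31.5 CPM against 38.8 to 45.7 in WT), innate lymphoid and NK (5.97 to 7.86 against 7.97 to 11.3) and endothelial (18.4 to 19.8 against 23.9 to 27.3). Of these markers, 0 of 5 mast cell, 0 of 5 tested innate lymphoid and 0 of 4 tested endothelial ones were called by edgeR in that comparison. A single gene was lower without overlap in 13.3% of cases, as given above. No such share was computed for sums over a list. The 3 lists were named for this separation, and the sums of all other marker lists overlapped. Their means were higher in cHyper for the thymocyte, keratinocyte-like, cTEC, tuft and B cell lists. They were lower for the mTEC, the myeloid and dendritic, and the fibroblast lists. The part of these markers in the interleukin values was not tested. Tested directly, the genotype effect in mTEChi minus that in mTEClo was called for 0 of 30 interleukin genes by edgeR, with 11 at an unadjusted p under 0.05 (4123 of all 28932 genes), 3 called by DESeq2 and 0 by limma-voom, beside 2.06% of all genes by edgeR (1.13% higher, 0.926% lower).

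**Figure D3:**
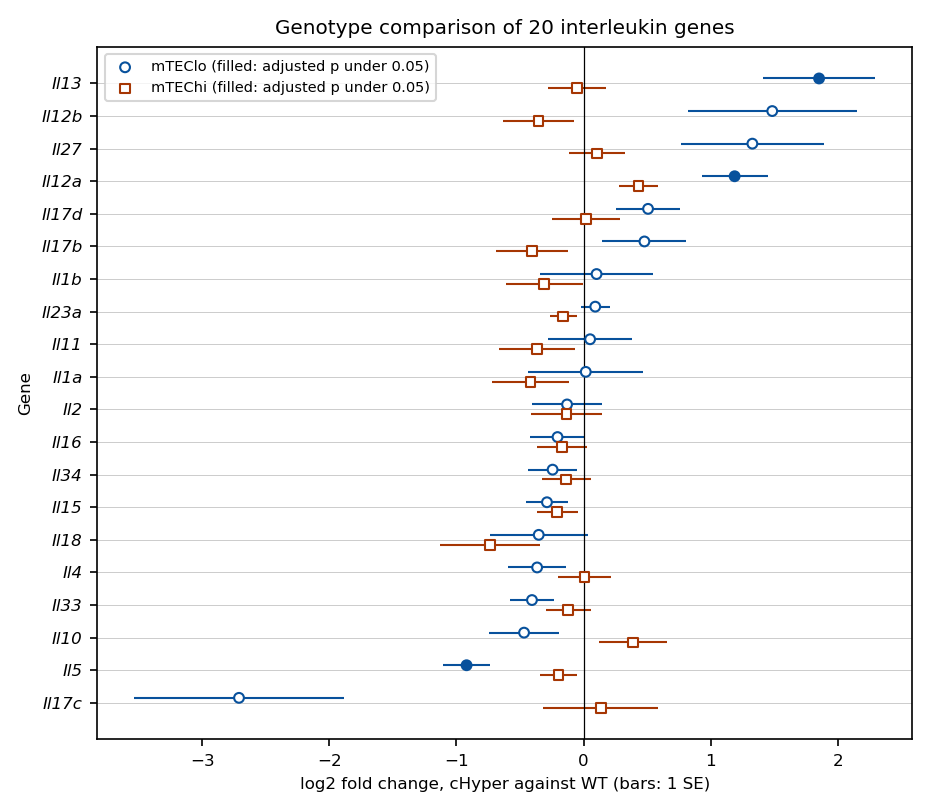
Log2 fold change of cHyper against WT with 1 standard error for the 20 interleukin genes with more than 3 fragments in all 4 groups, circles mTEClo and squares mTEChi, filled where the adjusted p was under 0.05. The filled points are Il13 and Il12a to the right and Il5 to the left, all in mTEClo.

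The genes called between the genotypes include a pair of neighbours. Il13 (chromosome 11, 53631324 to 53634702 on mm10, minus strand), a type 2 cytokine that acts on epithelium through Il13ra1 and Il4ra, lies 86.091 kb from Il5 (53720794 to 53725106, plus strand), the growth factor of eosinophils. Rad50 lies between them, and Il4, which drives type 2 T cell differentiation, lies 12.654 kb from Il13 on the other side. The bases upstream of Il13, Il5 and Il12a are shown because these 3 were the interleukin genes called between the genotypes in mTEClo. As given above, that share is near the background. Each run is the 250 bases before the start site, from RefSeq (GRCm38.p6, the build also called mm10), read 5′ to 3′ on the gene's strand, and capitals mark matches to TATAAA on either strand, which in the Il13 run overlap and begin 31 and 29 bases before the start.
Il13 (chr11:53634703-53634952, minus strand): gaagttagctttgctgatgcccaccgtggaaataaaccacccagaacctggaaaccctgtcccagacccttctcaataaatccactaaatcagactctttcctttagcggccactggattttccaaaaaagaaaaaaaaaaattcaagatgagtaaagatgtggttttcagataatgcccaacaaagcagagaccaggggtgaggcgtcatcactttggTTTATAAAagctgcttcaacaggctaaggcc
Il5 (chr11:53720544-53720793, plus strand): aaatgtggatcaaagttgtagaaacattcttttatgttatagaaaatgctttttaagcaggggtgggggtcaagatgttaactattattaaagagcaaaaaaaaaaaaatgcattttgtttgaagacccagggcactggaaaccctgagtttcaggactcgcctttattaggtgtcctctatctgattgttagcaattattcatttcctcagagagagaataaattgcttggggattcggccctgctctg
Il12a (chr3:68690394-68690643, plus strand): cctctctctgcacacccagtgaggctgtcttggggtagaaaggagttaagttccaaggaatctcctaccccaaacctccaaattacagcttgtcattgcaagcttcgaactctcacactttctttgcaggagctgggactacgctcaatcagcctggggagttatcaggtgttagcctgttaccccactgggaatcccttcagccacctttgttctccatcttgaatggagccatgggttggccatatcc
The Il5 and Il12a runs hold no match to TATAAA, and none of the 3 runs matches TGANTCA (AP-1), an interferon response element (GAAA, any 2 bases, GAAA) or an NF-kB motif (GGG, any 2 bases, TTTCC). Of the 31 genes, 24 had at least 1 window in the RefSeq table, 30 windows in all, each searched on both strands over the 250 bases before the start. The table has no entry for Il10, Il23a, Il27, Il15, Il34, Il17b and Il24. TATAAA was found for 10 genes, TGANTCA for 6, the interferon response element for 2, the NF-kB motif for 3 and the p53 element, searched with no spacer inside it, for 0. Of all 32851 windows in the table, 12.4% held TATAAA, 6.75% TGANTCA, 2.98% the interferon response element, 1.41% the NF-kB motif and 0.00913% the p53 element. These shares are per window and the counts before them per gene. A gene with several windows had more places to match, so the 2 are not directly comparable. The 3 genes with the NF-kB motif were Il6, Il9 and Il16.

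Il13 had 0.425, 0.37 and 0.141 CPM in the WT mTEClo libraries and 0.594, 1.22 and 2.2 CPM in the cHyper mTEClo libraries. The lowest cHyper value exceeded the highest WT value, and the spread was widest in cHyper. The rise was 1.85 on the log2 scale (SE 0.44, edgeR Benjamini-Hochberg adjusted p = 0.0159), from 37 to 133 fragments. Replicate 3 was the lowest WT and the highest cHyper library; with replicates 1 and 2 alone the log2 change was 1.16 and was not called (edgeR, BH-adjusted p = 0.116). Leaving out WT mTEClo replicate 3 also ended the call (log2 1.62, edgeR, BH-adjusted p = 0.0535). So did limma-voom (adjusted p = 0.107) and an edgeR fit of the 2 compared groups alone (adjusted p = 0.0632).

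In mTEChi Il13 was the interleukin gene with the highest TPM in every library. It had 86, 110 and 115 CPM in WT and 94.7, 116 and 88.7 in cHyper, overlapping groups with a log2 difference of -0.05 (SE 0.23). Against mTEClo the increase was 8.23 on the log2 scale in WT (SE 0.36, edgeR, BH-adjusted p = 1.47e-10) and 6.32 in cHyper (SE 0.31, edgeR, BH-adjusted p = 5.99e-10). The difference between the genotype effects was -1.91 (SE 0.50) and was not called (edgeR, BH-adjusted p = 0.0666). DESeq2 gave 0.0247 for it and edgeR without cHyper mTEClo replicate 1 0.0105 as adjusted p.

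Il5 moved the other way in mTEClo. It had 2.31, 2.27 and 2.67 CPM in WT and 1.33, 1.15 and 1.34 in cHyper, so that each cHyper library lay below each WT library and the spread within a group was small. It fell by 0.92 on the log2 scale (SE 0.18, edgeR, BH-adjusted p = 0.00504), from 253 to 141 fragments, and this was the smallest p among the interleukin genes in that comparison. Limma-voom did not call it (adjusted p = 0.0628); the call held in the other 20 alternatives, replicates 1 and 2 alone among them. The difference between the genotype effects, 0.72 (SE 0.23), was not called (edgeR, BH-adjusted p = 0.147). Gm12214, a gene on the opposite strand, shares up to 417 bases with Il5. It was counted at 86 fragments over the WT and 66 over the cHyper mTEClo libraries. As the strand setting of the counting was not found in the labels, reads in that stretch cannot be told apart. In mTEChi Il5 had 18, 20 and 24.4 CPM in WT and 17.4, 16.2 and 20.9 in cHyper, overlapping groups (log2 -0.20, SE 0.15). Its increase from mTEClo to mTEChi was 3.11 in WT and 3.83 in cHyper on the log2 scale (SE 0.17 and 0.18, edgeR, BH-adjusted p = 7.47e-10 and 3.73e-10).

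The other type 2 genes did not pass the genotype test in either cell type. Il4 had a mean of 2.14 ± 0.595 CPM (SD, n = 3) in WT and 1.64 ± 0.2 in cHyper mTEClo, against 5.34 ± 0.562 and 5.37 ± 0.666 in mTEChi. It rose by 1.34 and 1.71 on the log2 scale between the cell types of WT and cHyper, the smallest such rise of the chromosome 11 genes. Il3, a growth factor of basophils and mast cells, lies 540.196 kb from Il5 with Csf2 between them. It had no fragment in the 6 mTEClo libraries. Its mTEChi libraries had 2.48, 2.42 and 4.26 CPM in WT and 2.99, 2.51 and 3.37 in cHyper. Measured against a floor of 3 fragments over the mTEClo group, Il3 was at least 102-fold higher in WT mTEChi and at least 108-fold higher in cHyper mTEChi. Il9, a mast cell and type 2 cytokine on chromosome 13, had 2.8, 3.16 and 3.93 CPM in WT mTEChi and 2.92, 3.6 and 4.98 in cHyper mTEChi, and, of the mTEClo groups, 0 fragments in WT and 3 in cHyper. That is at least 114-fold higher in WT, and a ratio of 135 in cHyper, whose 95% counting interval runs from 45.9 to 657.

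**Figure D4:**
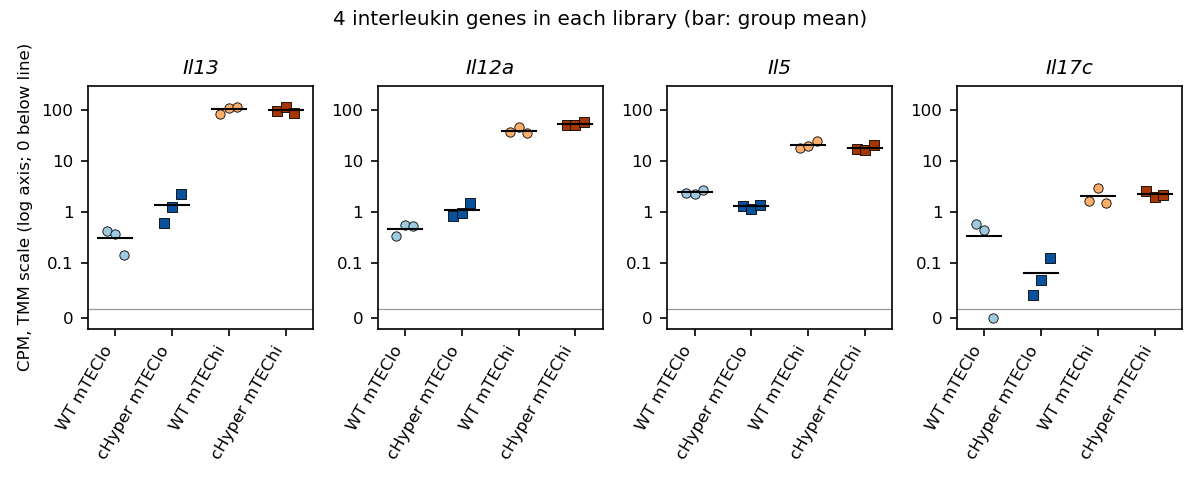
CPM of Il13, Il12a, Il5 and Il17c in each library by group (log axis, 0 below the horizontal line), with the group mean as a bar. In mTEClo the cHyper libraries lie above WT for Il13 and Il12a and below WT for Il5, while 1 WT library of Il17c is at 0.

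The IL-12 family held Il23a and Il12a, which followed Il13 by TPM in mTEChi. Il12a (chromosome 3, 68690644 to 68698547) had 0.331, 0.556 and 0.516 CPM in WT mTEClo and 0.845, 0.966 and 1.47 in cHyper mTEClo. The groups did not overlap, and the rise was 1.19 on the log2 scale (SE 0.26, edgeR, BH-adjusted p = 0.00957), from 49 to 115 fragments. With replicates 1 and 2 alone it was 1.01 and not called (edgeR, BH-adjusted p = 0.063), and without WT mTEClo replicate 1 it was 0.96 (edgeR, BH-adjusted p = 0.0558). Limma-voom gave an adjusted p of 0.101 and an edgeR fit of the 2 compared groups alone 0.0999. In mTEChi Il12a had 37, 46.1 and 36.4 CPM in WT and 51.1, 52.3 and 58 in cHyper. Here too the cHyper values were all above the WT values, as was so for 12.4% of the genes with a fragment in mTEChi, but the log2 difference of 0.43 (SE 0.15) missed the threshold (edgeR, BH-adjusted p = 0.186). Between the cell types it rose by 6.43 in WT and 5.67 in cHyper (SE 0.22 and 0.20, edgeR, BH-adjusted p = 3.14e-11 and 7.11e-11), the smallest p of all interleukin genes in both genotypes.

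Il23a was the interleukin gene with the highest mean TPM in mTEClo, 15.4 in WT and 16.2 in cHyper. Its libraries had 15.3, 15.7 and 17.7 CPM in WT mTEClo and 16, 19.7 and 16.1 in cHyper mTEClo, with no separation of the genotypes (log2 0.09, SE 0.11). In mTEChi they had 121, 139 and 144 CPM in WT and 123, 129 and 110 in cHyper. The rise between the cell types was 3.06 in WT and 2.81 in cHyper on the log2 scale (SE 0.12 in each, edgeR, BH-adjusted p = 7.12e-11 and 1.88e-10). Il12b, the subunit shared by IL-12 and IL-23, was far lower per length than either partner. It had 0, 0.0926 and 0.188 CPM in WT mTEClo and 0.114, 0.23 and 0.366 in cHyper mTEClo. The mTEChi libraries had 10.1, 9.14 and 12 CPM in WT and 8.6, 8.67 and 7.03 in cHyper, groups that did not overlap but did not pass the test (log2 -0.35, SE 0.28, edgeR, BH-adjusted p = 0.587). In TPM, WT mTEChi means were 146 for Il23a, 57.3 for Il12a and 12.9 for Il12b, and cHyper mTEChi means were 123, 72.5 and 9.49.

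Il27, the specific subunit of IL-27, had 0.0709, 0.162 and 0 CPM in WT mTEClo and 0.183, 0.184 and 0.407 in cHyper mTEClo. The cHyper libraries lay above the WT libraries, as they did for 12.2% of the genes with a fragment in mTEClo, on 10 against 26 fragments (log2 1.33, SE 0.56, edgeR, BH-adjusted p = 0.171, not called). In mTEChi Il27 had 13.4, 18.5 and 19.7 CPM in WT and 19, 19.2 and 17.1 in cHyper, which is 7.49 and 6.26 above mTEClo on the log2 scale (SE 0.37 and 0.33), a direction set by its passing the filter through mTEChi. Il27 shares up to 103 bases with Apobr on the opposite strand, which had 4507 fragments in WT mTEChi against 422 in WT mTEClo. Ebi3, the partner of Il27, rose between the cell types as well, by 4.96 in WT and 5.24 in cHyper (SE 0.19 in each, edgeR, BH-adjusted p = 7.17e-11 and 1.07e-10), and its mean TPM in mTEChi was 86.6 in WT and 97.2 in cHyper.

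Of the IL-10 family, Il24, Il20, Il19 and Il10 lie in this order on chromosome 1 with no other gene between them, 19.53, 21.204 and 79.729 kb apart. Il24, Il20 and Il19 act on epithelial cells, Il10 is the inhibitory member, and their levels across the cell types differed along the cluster. Il24 had 6.35, 7.01 and 7.58 CPM in WT mTEChi and 5.47, 6.87 and 5.8 in cHyper mTEChi, and 1 fragment in each mTEClo group (0.0469 CPM in WT replicate 3 and 0.0228 CPM in cHyper replicate 1). The ratio of mTEChi to mTEClo was 735 in WT (95% counting interval 132 to 29084) and 679 in cHyper (122 to 26873). Il19 had 172 and 138 fragments in WT and cHyper mTEChi, against 0 and 4 in mTEClo. Il20 had 34 and 18 fragments in mTEChi and none in mTEClo, at least 10 times the floor in WT and at least 5.93 times in cHyper, with no test. Il10, by contrast in level, was already at 4.68 ± 0.986 CPM (SD, n = 3) in WT mTEClo and at 5.18 ± 0.781 in WT mTEChi, a log2 difference of 0.16 (SE 0.27, 95% interval -0.374 to 0.691) that was not called. In cHyper it was at 3.4 ± 1.18 in mTEClo and 6.84 ± 1.71 in mTEChi and was called higher (log2 1.02, SE 0.28, edgeR, BH-adjusted p = 0.00476). The difference between those effects was 0.86 (SE 0.39) and was not called (edgeR, BH-adjusted p = 0.33).

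Il22, a member of the same family on chromosome 10 that acts on epithelial barriers, had no fragment in WT mTEClo and 1 in cHyper mTEClo. In mTEChi it had 11.5, 14.1 and 12.8 CPM in WT and 14.2, 12.6 and 12.1 in cHyper, tightly grouped and overlapping between the genotypes (log2 0.02, SE 0.17). It was at least 456-fold higher in WT mTEChi than in WT mTEClo, the highest such bound among the genes at 0 in WT mTEClo.

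The IL-17 family divided by cell type. Il17a and Il17f, 42.649 kb apart on chromosome 1 and known as the neutrophil-recruiting products of Th17 cells, had no fragment in WT mTEClo. In mTEChi Il17a stood at 1.38 ± 0.362 CPM (SD, n = 3) in WT and 0.63 ± 0.18 in cHyper, a non-overlapping pair of groups with a log2 difference of -1.12 (SE 0.40), not called (edgeR, BH-adjusted p = 0.223). Il17a was lower in all 3 cHyper libraries, a separation found for 13.3% of the genes with a fragment in mTEChi. Il17f stood at 0.936 ± 0.0719 and 0.67 ± 0.237 CPM (edgeR, BH-adjusted p = 0.624). Il17b, on chromosome 18, rose between the cell types by 2.53 in WT and 1.65 in cHyper (SE 0.32 and 0.31, edgeR, BH-adjusted p = 5.45e-06 and 0.000267). Il17d was the family member with a higher level in mTEClo. It stood at 2.11 ± 0.461 against 1.42 ± 0.295 CPM in WT (log2 -0.57, SE 0.26, edgeR, BH-adjusted p = 0.0664, not called) and at 3.01 ± 0.564 against 1.44 ± 0.311 CPM in cHyper, where it was lower in mTEChi by test (log2 -1.06, SE 0.26, edgeR, BH-adjusted p = 0.00248). The WT difference was called when replicate 3 of WT mTEClo, cHyper mTEClo or cHyper mTEChi was left out (edgeR, BH-adjusted p = 0.0378, 0.0424 and 0.0461).

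Il17c, an epithelial cytokine that signals through Il17re, is given in full although its call fails, and was chosen after its values were seen. It had 0.567, 0.44 and 0 CPM in WT mTEClo and 0.0228, 0.046 and 0.122 in cHyper mTEClo. The WT library at 0, replicate 3, was the shallowest, and because of it the groups overlapped. Whether depth accounts for that 0 was not tested. The log2 difference was -2.71 (SE 0.82, 43 against 6 fragments, edgeR, BH-adjusted p = 0.0541). DESeq2 on all libraries gave an adjusted p of 0.00539. Without WT mTEClo replicate 3 the adjusted p in edgeR was 0.00499, but leaving out the WT library at 0 favoured a lower value. In mTEChi it had 1.63, 2.97 and 1.52 CPM in WT and 2.59, 1.98 and 2.18 in cHyper. Its receptor gene Il17re fell in cHyper mTEClo, from 8.98 CPM to 5.90 (log2 -0.61, SE 0.13, edgeR, BH-adjusted p = 0.00856).

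The IL-1 family held genes that moved in opposite directions between the cell types. Il1a and Il1b, the fever-inducing ligands of Il1r1, lie 54.597 kb apart on chromosome 2. Il1a had 0.425, 0.162 and 0.751 CPM in WT mTEClo and 0.457, 0.276 and 0.529 in cHyper mTEClo, then 6.6, 6.04 and 9.06 in WT mTEChi and 6.34, 4.29 and 5.55 in cHyper mTEChi. Il1b had 0.236, 0.556 and 0.235 CPM, then 0.503, 0.161 and 0.529, in WT and cHyper mTEClo, and 4.03, 4.24 and 5.12, then 3.88, 3.21 and 3.7, in WT and cHyper mTEChi. The genotypes overlapped for both genes except for Il1b in mTEChi, whose log2 difference of -0.31 (SE 0.30) was not called. In WT the rise between the cell types was 4.15 for Il1a and 3.63 for Il1b on the log2 scale (SE 0.39 and 0.38, edgeR, BH-adjusted p = 2.23e-07 and 7.38e-07). In cHyper it was 3.71 and 3.22 (SE 0.38 and 0.37, edgeR, BH-adjusted p = 7.82e-07 and 2.89e-06).

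Il33, an alarmin of barrier epithelium whose receptor is Il1rl1, was called lower in mTEChi in both genotypes, and Il17d in cHyper. It had 17.3, 12.4 and 11.6 CPM in WT mTEClo and 8.79, 8.33 and 7.9 in WT mTEChi, with no overlap, and fell by 0.72 on the log2 scale (SE 0.18, edgeR, BH-adjusted p = 0.00197). In cHyper it had 8.29, 10.6 and 12.4 CPM in mTEClo and 7.92, 7.75 and 7.32 in mTEChi, a fall of 0.44 (SE 0.18, edgeR, BH-adjusted p = 0.0414). The cHyper call held in 11 of 21 alternatives, with edgeR, DESeq2 or limma-voom adjusted p from 0.00899 to 0.202. It ended with library totals, with DESeq2's size factors and with replicates 1 and 2 alone. Il18, which needs Casp1 for its release, stood at 1.81 ± 0.451 and 1.65 ± 0.919 CPM (SD, n = 3) in WT mTEClo and mTEChi. The 95% interval of that log2 difference was -0.918 to 0.584, and it was not called in cHyper either. The 5 measured IL-1 family ligands whose symbols lie outside the rule (Il1f5, Il1f6, Il1f8, Il1f9 and Il1f10) were all called higher in mTEChi in both genotypes. Of all genes, 40.2% were called higher in WT and 38.7% in cHyper.

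Among the cytokines of the common gamma chain, Il15 was present in both cell types. Il15, which supports natural killer and memory T cells, had 12.6, 15.9 and 13.3 CPM in WT mTEClo and 10.4, 11.2 and 12.9 in cHyper mTEClo. In mTEChi it had 22.9, 31.2 and 30.6 CPM in WT and 22.5, 29.8 and 20.7 in cHyper. All mTEChi libraries lay above all mTEClo libraries, and the rise was 1.01 in WT and 1.09 in cHyper (SE 0.16 and 0.17, edgeR, BH-adjusted p = 6.91e-05 and 4.29e-05). Its receptor gene Il15ra, which presents the cytokine, changed the other way, from 177 CPM to 76.0 in WT (log2 -1.22, SE 0.15, edgeR, BH-adjusted p = 4.36e-06) and from 170 to 86.0 CPM in cHyper (log2 -0.98, SE 0.15, edgeR, BH-adjusted p = 4.17e-05).

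Il2 and Il21 are neighbours on chromosome 3, 96.799 kb apart, with unlike levels. Il2, the T cell growth factor, stood at 1.77 ± 0.262 CPM (SD, n = 3) in WT mTEClo and 1.52 ± 0.37 in WT mTEChi, and its log2 difference lay between -0.757 and 0.325 (95% interval), not called. Il21, a helper T cell cytokine that acts on B cells, had no fragment in WT mTEClo and 5 in cHyper mTEClo. In mTEChi it had 4.73, 4.39 and 7.47 CPM in WT and 3.84, 3.69 and 2.71 in cHyper, and was at least 186-fold higher in WT mTEChi than in WT mTEClo. The mTEChi genotypes did not overlap for Il21, but the log2 difference of -0.68 (SE 0.30) was not called (edgeR, BH-adjusted p = 0.313).

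Of the cytokines that signal through Il6st or its relatives, Il31, known for its part in itch, was at 0 in WT mTEClo and had 5 fragments over replicates 2 and 3 of cHyper mTEClo. In mTEChi it had 3.57, 3.38 and 6.89 CPM in WT and 3.99, 2.47 and 2.88 in cHyper, at least 152-fold above WT mTEClo in WT. Il6, the acute-phase cytokine, had 0 fragments over the WT and 9 over the cHyper mTEClo libraries (edgeR, BH-adjusted p = 0.0738, not called; 0.0311 by DESeq2), with 207 and 136 in WT and cHyper mTEChi. Il11 rose between the cell types of WT, from 0.74 ± 0.241 to 1.92 ± 0.229 CPM (SD, n = 3; log2 1.33, SE 0.31, edgeR, BH-adjusted p = 0.00156). In cHyper its rise was 0.91 (SE 0.32, edgeR, BH-adjusted p = 0.0204), a call held in 16 of 21 alternatives and lost, for example, with replicates 1 and 2 alone (edgeR, BH-adjusted p = 0.0569). Il34, a ligand of Csf1r, did not pass the test in any comparison, with means between 4.23 and 4.97 CPM in the 4 groups. Il16, a chemoattractant of CD4-positive cells, rose by 1.54 in WT and 1.57 in cHyper between the cell types (SE 0.21 in each, edgeR, BH-adjusted p = 1.04e-05 and 1.10e-05). It shares up to 3606 bases with Stard5 on the opposite strand, which had 12702 fragments in WT mTEClo and 3035 in WT mTEChi.

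The 10 interleukin genes without a fragment in WT mTEClo were Il17a, Il17f, Il20, Il19, Il21, Il6, Il31, Il22, Il3 and Il9, and 0 fragments over the 3 libraries allowed up to 0.0281 CPM, in counting error alone. In cHyper mTEClo these genes had 9, 18 and 4 fragments in replicates 1 to 3, 31 in all, over 7 of the 10. Il17a, Il20 and Il3 stayed at 0 there, which allowed up to 0.0268 CPM. Because the genes were picked for being at 0 in WT mTEClo, a higher value in cHyper mTEClo was built into the choice. Together the 10 genes stood at 0.163 to 0.414 CPM in the cHyper mTEClo libraries and at 30.7 to 42.2 in WT mTEChi. Between the genotypes Il6 came nearest to a call among the 9 tested (edgeR, BH-adjusted p = 0.0738). Aire, which marks mTEChi, was higher in the same cHyper mTEClo libraries, 38.6 to 51.4 CPM against 11.3 to 16.2 in WT mTEClo (log2 1.64, SE 0.17, edgeR, BH-adjusted p = 2.39e-05), and at 1281 to 1923 CPM in the mTEChi libraries. Cd80, another mTEChi marker, was lower, 2.79 to 4.12 CPM against 4.65 to 9.03. The part of either in the interleukin differences was not tested.

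Receptor genes for these ligands were measured in the same libraries. Of 39 interleukin receptor genes, 7 were called higher and 2 lower in cHyper mTEClo, where 4.53% of all genes were called higher and 4.64% lower. Their median log2 difference was 0.16, beside 0.0015 over all genes tested. Il2ra, the high-affinity IL-2 receptor chain, rose from 103 CPM to 274 (log2 1.41, SE 0.16, edgeR, BH-adjusted p = 6.28e-05). Csf2rb, the beta chain for IL-3 and IL-5, rose from 61.4 CPM to 123 (log2 1.0, SE 0.12, edgeR, BH-adjusted p = 8.92e-05), and Il5ra from 6.74 CPM to 14.8 (log2 1.13, SE 0.17, edgeR, BH-adjusted p = 0.000561). Both chains of the IL-5 receptor were thus higher in the libraries in which Il5 itself was lower. Il20rb rose from 66.0 CPM to 104 (log2 0.65, SE 0.10, edgeR, BH-adjusted p = 0.000785). These 4 calls held in all 21 alternatives run for each.

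In mTEChi 4 of 39 receptor genes were called higher in cHyper and 0 lower, beside 1.56% and 0.418% of all genes. Il2ra rose from 122 CPM to 258 (log2 1.08, SE 0.16, edgeR, BH-adjusted p = 0.00215) and Il5ra from 20.7 CPM to 37.6 (log2 0.86, SE 0.16, edgeR, BH-adjusted p = 0.0101). The Il5ra call ended when replicate 1 or 3 of WT mTEChi, or replicate 2 of cHyper mTEChi, was left out (edgeR, BH-adjusted p = 0.0561, 0.0558 and 0.0574). The calls of Il20rb and Il1rap held in 13 and 6 of 21 alternatives, with adjusted p by edgeR, DESeq2 or limma-voom up to 0.109 and 0.283.

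Between the cell types of WT, 24 of 39 receptor genes were called higher in mTEChi and 8 lower, beside 40.2% and 29.4% of all genes. In cHyper it was 22 and 8, beside 38.7% and 25.8%. Il2rg, the common gamma chain, rose from 3.62 CPM to 212 in WT (log2 5.90, SE 0.23, edgeR, BH-adjusted p = 7.17e-11), and Il21r from 0.506 CPM to 40.9 (log2 6.27, SE 0.40, edgeR, BH-adjusted p = 4.00e-09). Il6st, the chain shared by the IL-6 family, fell by 3.32 on the log2 scale in WT, from 798 to 79.8 CPM (SE 0.16, edgeR, BH-adjusted p = 3.45e-10). Osmr fell from 303 CPM to 37.1 (log2 -3.03, SE 0.15, edgeR, BH-adjusted p = 2.90e-10) and Il13ra1 from 248 CPM to 121 (log2 -1.03, SE 0.10, edgeR, BH-adjusted p = 2.67e-07).

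Of 12 genes for antagonists, partner subunits and processing enzymes, 10 were called higher and 1 lower in mTEChi in each genotype, where 40.2% of all genes were higher and 29.4% lower in WT and 38.7% and 25.8% in cHyper. Il1rn, the IL-1 receptor antagonist, rose from 42.7 CPM to 264 in WT (log2 2.63, SE 0.09, edgeR, BH-adjusted p = 3.14e-11). Between the genotypes 2 were called higher and 3 lower in mTEClo, beside 4.53% and 4.64% of all genes, among them Aim2, an inflammasome sensor, from 5.49 CPM to 11.0 (log2 1.0, SE 0.13, edgeR, BH-adjusted p = 0.000245), and Casp4, from 68.1 CPM to 47.1 (log2 -0.53, SE 0.10, edgeR, BH-adjusted p = 0.00481). In mTEChi Aim2 was the 1 gene called, and the call held in 16 of 21 alternatives.

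Of 12 related cytokine genes, 9 were called higher and 3 lower in mTEChi in each genotype, the lower share being near that of all genes (29.4% in WT and 25.8% in cHyper; higher 40.2% and 38.7%). Csf2, which lies between Il5 and Il3, rose by 5.55 in WT and 4.74 in cHyper on the log2 scale (SE 0.46 and 0.41, edgeR, BH-adjusted p = 7.31e-08 and 1.32e-07). In cHyper mTEClo 2 of the 12 fell, Clcf1 from 17.3 CPM to 8.74 (log2 -0.98, SE 0.17, edgeR, BH-adjusted p = 0.00181) and Ltb, whose call held in 9 of 21 alternatives. Of 21 signalling genes, 3 fell in cHyper mTEClo and 1, Socs2, rose, beside 4.64% and 4.53% of all genes. Stat2 fell from 314 CPM to 152 (log2 -1.05, SE 0.10, edgeR, BH-adjusted p = 1.31e-05) and Socs3, a feedback inhibitor of Il6st signalling, from 679 CPM to 346 (log2 -0.97, SE 0.16, edgeR, BH-adjusted p = 0.00129). Stat2 was the 1 signalling gene whose genotype effect differed between the cell types (0.83, SE 0.14, edgeR, BH-adjusted p = 0.00739). In mTEChi 1 of 21 was called, Socs2, higher in cHyper (log2 0.75, SE 0.11, edgeR, BH-adjusted p = 0.00188).

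Markers of other cell types moved with the cell type comparison. Of all genes tested, 40.2% were called higher in mTEChi in WT and 38.7% in cHyper. The 14 mTEC markers moved too, although their sum was similar in all groups. In mTEChi 10 were called higher and 2 lower in WT, and 9 and 2 in cHyper. All 12 myeloid and dendritic markers were called higher in mTEChi in both genotypes. Their sum ran from 32.5 CPM to 37 in WT mTEClo and 30.2 to 49.3 in cHyper mTEClo, against 537 to 723 and 522 to 584 in WT and cHyper mTEChi. All 5 mast cell markers were called higher too, from a sum of at most 0.204 CPM in mTEClo to between 26.8 and 45.7 in mTEChi. At that mTEClo level they could pass the filter only through mTEChi, so their direction was built in. All 5 B cell markers were called higher as well, with sums of 6.28 to 11.4 CPM in mTEClo and 59.8 to 74.6 in mTEChi.

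Of 12 thymocyte markers, 9 were called higher in mTEChi in WT and 6 in cHyper, with sums of 15.4 to 48.4 CPM in mTEClo and 67.6 to 95.6 in mTEChi. The 6 innate lymphoid and NK markers summed to 0.667 to 1.64 CPM in mTEClo and 5.97 to 11.3 in mTEChi, with 4 of 5 tested called higher and 1 lower, Ncr1 at 0 in all mTEClo libraries and Klrd1 at 0 in WT mTEClo. The 4 tested endothelial markers were all higher in mTEChi, and 7 and 8 of 8 keratinocyte-like markers in WT and cHyper, with 1 lower in WT. The tuft list went the other way: 9 of 10 were called lower in mTEChi in WT, and 8 lower and 1 higher in cHyper, with WT sums of 804 to 1083 CPM in mTEClo and 179 to 229 in mTEChi. Mixed directions were found for the cTEC list, with 4 of 7 higher in each genotype and 2 and 3 lower in WT and cHyper, and for the fibroblast list, with 2 higher and 2 lower of 7 in WT and 3 and 3 in cHyper. Beside all of these counts, 40.2% of all genes were higher and 29.4% lower in WT, and 38.7% and 25.8% in cHyper. No list, the receptor and cytokine lists included, was split by passing the filter in mTEClo alone, as the interleukin genes were. The shares of all genes are therefore not for a like set. The part of these cells, or of transcription of their genes within mTEC, in the interleukin differences was not tested.

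Within mTEClo the genotypes differed in tuft cell markers: 6 of 10 were called lower in cHyper, beside 4.64% of all genes. The sum of the 10 was 466 to 679 CPM against 804 to 1083 in WT. Il17rb, a receptor chain of IL-25 that tuft and type 2 cells carry, fell in the same libraries (log2 -0.87, SE 0.20, edgeR, BH-adjusted p = 0.0145), a call lost when replicate 3 of WT mTEClo or replicate 2 of cHyper mTEClo was left out (edgeR, BH-adjusted p = 0.0576 and 0.0691). Of the blood cell lists, 0 of 12 thymocyte, 0 of 5 B cell, 0 of 5 mast cell and 0 of 5 tested innate lymphoid markers were called by edgeR between the genotypes in mTEClo, with 5, 1, 2 and 1 at an unadjusted p under 0.05. The median log2 differences of these lists were 1.15, -0.076, 1.62 and -0.23 in the same order, beside 0.0015 over all genes tested. Mast cell sums were at most 0.204 CPM. Thymocyte sums were 24.7, 38.7 and 48.4 CPM in cHyper against 15.4, 32.3 and 19.4 in WT, which overlap. B cell sums were 6.28 to 6.83 CPM in cHyper against 8.03 to 11.4 in WT, with no overlap. Of the myeloid markers 2 were called lower, Fcer1g and C1qb. In the remaining lists, 2 of 7 fibroblast markers were called higher and 1 lower, and 1 of 7 cTEC markers higher. Of 8 keratinocyte-like markers 1 was called lower, and of 14 mTEC markers 2 were called higher and 1 lower. Endothelial sums were 5.98 to 6.6 CPM in cHyper against 8.24 to 9.9 in WT, with 0 of 4 tested markers called. The part of these markers in the changes of Il13, Il12a and Il5 was not tested.

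**Figure D5:**
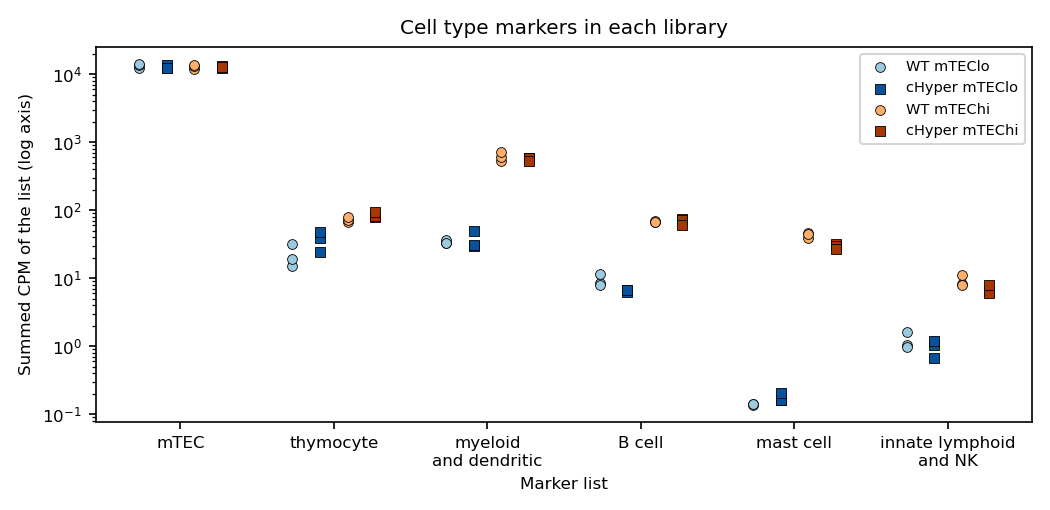
Summed CPM of 6 marker lists in each library (log axis), circles WT and squares cHyper. The mTEC sums lie between 11904 and 14072 CPM in all groups, and the 5 lists of blood cells are higher in mTEChi. Single mTEC markers moved between the cell types in both directions.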

How the data were processed

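Polyadenylated RNA of sorted mTEC was sequenced in pairs with a stranded kit, per the labels' protocols. The submitters' processing notes name TopHat2 2.1.1, SAMtools 1.9, featureCounts from Subread 2.0.1 and the build mm10; the annotation and the strand setting were not found in the labels. The authors deposited raw fragment counts per gene, and TPM for the same 12 libraries, with a gene length column as another deposited value. Counts were fitted in edgeR 4.0.16 (R 4.3.3) with TMM scaling and filterByExpr by group (minimum count 10): 1 quasi-likelihood fit on the 4 group means, 8 residual degrees of freedom, Benjamini-Hochberg adjustment over 28932 genes, threshold 0.05. The p-value and its adjusted form were computed here from the deposited counts. TPM served for levels between genes. Bounds for genes at 0 use 3 fragments over a group, and intervals at 95% cover counting error only. Bases shared with another gene were summed over exon entries. An exon entered more than once counts each time, so these sums are upper bounds. The fit was also run on simulated counts, with changes set only in genes above 1 CPM in WT mTEClo. Il13 and Il12a lay below that level there, so the simulation does not cover their calls.

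The members and lists were chosen with earlier results of these data known. Values per library were given for the 14 interleukin genes with the smallest p and the 3 highest by TPM in each group, 16 in all; up to 4 called genes were named per list and comparison, with receptor chains of described ligands. Same-numbered libraries deviated together in mTEChi genotypes (correlations 0.167, 0.136 and 0.206) and in the cHyper cell types (0.111, 0.104 and 0.125). The mTEClo genotypes and the WT cell types did so too, with values given below. The main fit did not pair the libraries, so its p-values leave this out, and a replicate block was run as an alternative. Alternatives were DESeq2 1.42.0, limma 3.58.1 (voom), other scalings and filters, a replicate block, replicates 1 and 2 alone, the compared groups alone and each library left out.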

Additional observations from a re-analysis of the deposited data

How the results depend on the processing

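Over these alternatives no interleukin gene changed direction with a call. In mTEClo the 3 interleukin genes called between the genotypes became 5 without a filter, 5 with DESeq2, 0 with limma-voom, 1 with the compared groups alone and 2 to 5 with a library left out (5 without cHyper mTEClo replicate 3). In the same order, the 2651 calls among all genes became 2983 of 45445, 3907, 2670, 1844 of 22776 and 1783 to 2550. With the compared groups alone only 17 interleukin genes were tested. In mTEChi the count stayed at 0, while the 572 genes called overall became 1455 with DESeq2, 862 with limma-voom, 1251 with the replicate block, 312 with replicates 1 and 2, 1126 with the compared groups alone and 296 to 678 with a library left out. For the difference between the genotype effects, the 0 interleukin genes became 3 without a filter, 3 with DESeq2, 2 with the replicate block and 0 to 1 with a library left out (1 without WT mTEClo replicate 3 or without cHyper mTEClo replicate 1). The 595 genes called overall became 1103, 1425 and 1186 in the first 3 of these, 282 with replicates 1 and 2, and 354 to 629 with a library left out. The cause was not tested. Between the cell types, 25 to 27 interleukin genes were called in WT and 26 to 28 in cHyper with a library left out. Among all genes the calls were then 19422 to 21145 in WT and 17508 to 19454 in cHyper. Same-numbered libraries correlated at 0.180, 0.097 and 0.171 in the mTEClo genotypes and 0.172, 0.093 and 0.233 in the WT cell types; with the replicate block, 3 and 26 interleukin genes were called there, and 3916 in place of 2651 genes overall in mTEClo. The block also called Il17d lower in WT mTEChi (edgeR, BH-adjusted p = 0.0328) and the difference between the genotype effects for Il13 and Il5 (0.0488 and 0.0490). Genes with few fragments in mTEClo depended on the tool: Il6, at 0 against 9 fragments, was called by DESeq2 and not by edgeR.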
